A study of Mus musculus with 40 samples.

Results

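The gene set described here comprises 10 secreted factors of mouse cells: the chemokines Cxcl1, Cxcl9, Cxcl10, Cxcl12, Cxcl16, Ccl2, Ccl5, Ccl7 and Cx3cl1, and the colony-stimulating factor Csf1. Its members were chosen by name, and all 10 were found by Ensembl identifier among the 39056 gene identifiers of the deposited count table. Of the 10, 6 (Cxcl1, Cxcl9, Cxcl10, Cxcl12, Cx3cl1 and Csf1) were among the 15135 genes that passed a filter on low counts and were tested, and 4 (Cxcl16, Ccl2, Ccl5 and Ccl7) were not, so those 4 are given by their reads. Cxcl1 (ENSMUSG00000029380.11), Cxcl9 (ENSMUSG00000029417.9) and Cxcl10 (ENSMUSG00000034855.13) lie on chromosome 5, Cxcl12 (ENSMUSG00000061353.11) on chromosome 6, Cx3cl1 (ENSMUSG00000031778.13) on chromosome 8, Csf1 (ENSMUSG00000014599.10) on chromosome 3 and the 4 others on chromosome 11. Every group held wild-type C57BL/6 oligodendrocyte-lineage cells, prepared from cortices of 6-day-old pups by immunopanning, passaged 2 times and allowed to differentiate for 12 to 14 h before plates were allotted at random. The 10 groups of 4 libraries were cells given interferon-gamma (IFN-gamma, 200 U/ml) for 1, 8, 24 or 48 h, cells given thapsigargin (200 uM as the labels state it) for 1 or 8 h, and untreated cells of 1, 8, 24 and 48 h. The labels put the age at 6-7 days and name whole brain as the tissue beside the developing oligodendrocyte cell type, and they do not say whether the 4 libraries of a group came from separate preparations, so a p-value here reflects variation among these libraries, part of which may be technical.

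Chemokines are small secreted proteins that draw leukocytes along a gradient by binding G protein-coupled receptors. Cxcl9 and Cxcl10 act on Cxcr3 of activated T and natural killer cells and are textbook targets of IFN-gamma, which induces the transcription factor Irf1. Cxcl1 acts on Cxcr2 of neutrophils, and Ccl2 and Ccl7 on Ccr2 of monocytes, while Ccl5 draws T cells and monocytes. Cxcl12 acts on Cxcr4 and is bound by the scavenger Ackr3, and Cxcl16 and Cx3cl1 are made as membrane-bound proteins that the proteases Adam10 and Adam17 can shed, with Cxcr6 and Cx3cr1 as their receptors. Csf1 is the growth factor that keeps microglia and macrophages alive through Csf1r. Thapsigargin blocks the calcium pump of the endoplasmic reticulum and so provokes its stress response.

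Libraries held 13165483 to 22651092 reads on genes, and levels are given as CPM, reads of a gene for each 1000000 reads of its library, on TMM-scaled library sizes. Genes that failed the filter held between 0.0420 and 0.315% of a library's reads, and 8 libraries stood above 0.1%: the highest were untreated 24 h replicate 4 at 0.315%, IFN-gamma 1 h replicate 3 at 0.230% and IFN-gamma 48 h replicate 2 at 0.218%. Calls that were lost or gained without these libraries, and the larger shifts in size, are given below. The libraries also differed in genes that mark male and female cells. For 4 Y-linked genes together, 8 of 16 libraries given IFN-gamma held 0.656 to 8.18 CPM, with Xist at 320 to 718 CPM, and the other 8 held 274 to 339 CPM, with Xist at most 11.1 CPM, against 25 to 410 CPM in thapsigargin libraries and 144 to 424 CPM in untreated ones. As a covariate, log2 of 1 plus the summed CPM of Kdm5d, Eif2s3y and Uty was used. With it the number of members called in each comparison of a treatment with untreated cells was as without it. No untreated library held under 144 CPM of the 4 genes or over 183 CPM of Xist. For the 8 IFN-gamma libraries with low sums, treatment and the make-up or preparation of the cells thus cannot be told apart. The covariate does not separate them. The lineage markers Olig2 (348 to 873 CPM), Sox10 (343 to 931 CPM) and Pdgfra (1010 to 2650 CPM) were high in every group mean. The level of the lineage moved with the groups: the 12 lineage markers summed to a mean of 5440 CPM in IFN-gamma 8 h and 9140 CPM in IFN-gamma 48 h cells and to 3360 CPM in thapsigargin 8 h cells, against 7980 CPM in untreated 8 h and 18000 CPM in untreated 48 h cells. None was called higher and 3 lower at 8 h of IFN-gamma, where 13.1 and 12.1% of all tested genes were. At 48 h 2 were higher and 6 lower, where 16.9 and 19.9% of all tested genes were. Under thapsigargin at 8 h none was higher and 6 lower, where 29.6 and 31% of all tested genes were. The part of the lineage level in the levels of the 10 factors was not tested. Of 15 microglia and macrophage markers, 12 averaged under 0.5 CPM in each group, and the defining markers Aif1 (at most 0.0801 CPM), C1qa (0.0448 CPM), Itgam (0.0678 CPM) and Tmem119 (0.0756 CPM) were near 0. The 7 T and NK cell markers summed to at most 1.38 CPM in any library, and the 9 endothelial markers to 4.22 to 23.4 CPM, of which Kdr averaged up to 12.9 CPM in a group while the defining markers Cdh5 and Cldn5 averaged at most 0.107 and 0.0222 CPM.

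Per length of annotated exon, Cx3cl1 and Csf1 stood well above the other members before any treatment. In untreated 1 h cells Cx3cl1 averaged 6.97 and Csf1 3.4 CPM per kb, against 0.258 CPM per kb for Ccl5, 0.0612 for Cxcl1 and 0.0408 for Cxcl12, while Cxcl10 had 0 reads in all 4 libraries. The highest group means on that scale were 26.5 CPM per kb for Cx3cl1 (IFN-gamma 8 h), 20.1 for Csf1 (IFN-gamma 48 h) and 3.52 for Cxcl10 (IFN-gamma 8 h). Cxcl1 (0.694, IFN-gamma 1 h), Ccl5 (0.418, untreated 48 h), Cxcl9 (0.396, IFN-gamma 8 h), Ccl2 (0.330, IFN-gamma 8 h) and Cxcl12 (0.224, IFN-gamma 48 h) all stayed below 1 CPM per kb at their highest. The length is that of all annotated exons together, retained-intron transcripts included. It was 1875 bases for Cxcl1 and 2252 for Cxcl10, while their coding transcripts Cxcl1-201 and Cxcl10-201 span 953 and 1094 bases. Values per kb, and their place under 1, depend on this choice. Levels of the lower members rest on few reads, which are printed beside them.

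**Figure D1:**
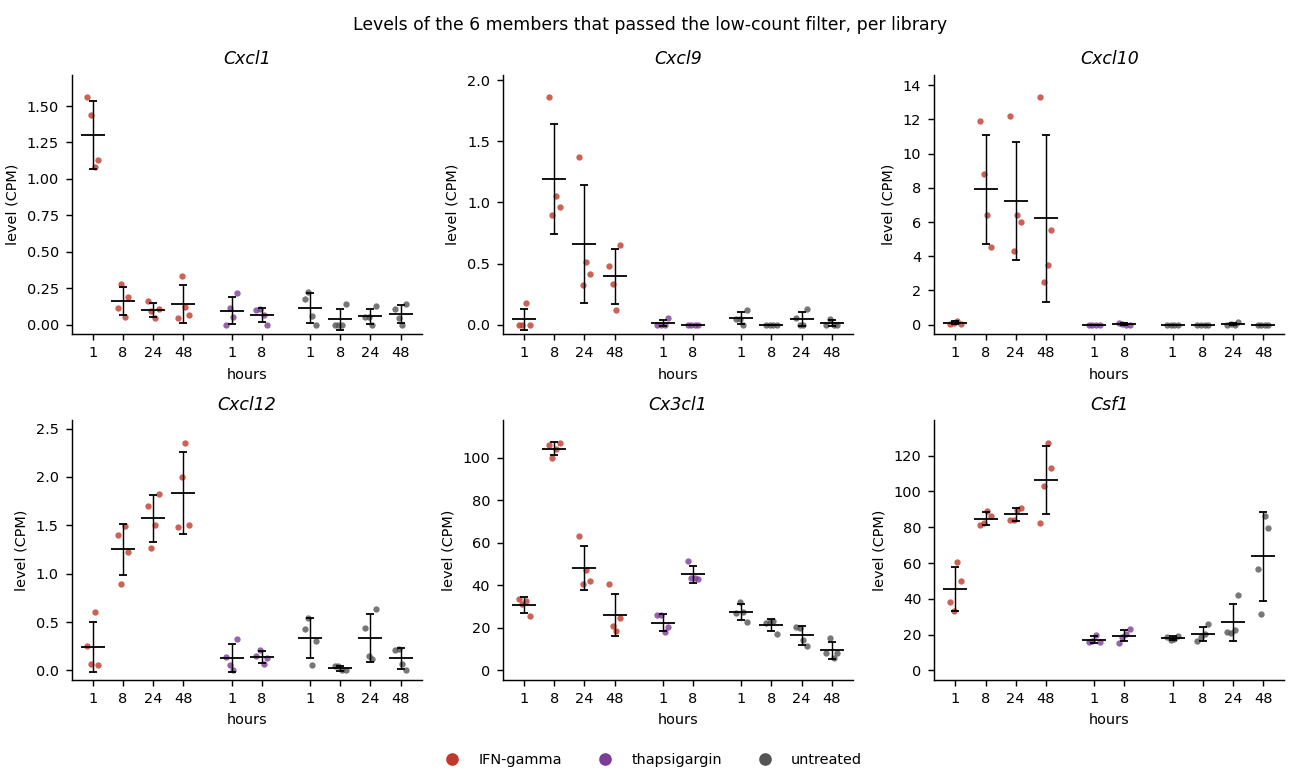
Levels in CPM (vertical axes, linear, a scale for each gene) of the 6 tested members in all 40 libraries, by hours of treatment or culture (horizontal axes). Points are libraries and black marks the mean ± SD of 4. Cxcl1 was highest in the IFN-gamma 1 h libraries (1.08 to 1.56 CPM), Cxcl10 in those of 8, 24 and 48 h (2.52 to 13.3 CPM), and Csf1 also climbed in untreated cells at 48 h (31.6 to 86.4 CPM).

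Across the treatment comparisons, the members that passed the filter were called mostly under IFN-gamma and mostly upward. Calls are those of edgeR's quasi-likelihood test with p-values adjusted by Benjamini-Hochberg over all 15135 genes, at a threshold of 0.05. After 1 h of IFN-gamma 2 of the 6 tested members were higher than in untreated cells (Cxcl1 and Csf1) and none was lower, where 1.08% of all tested genes were called higher and 0.211% lower. At 8, 24 and 48 h the same 5 members (Cxcl9, Cxcl10, Cxcl12, Cx3cl1 and Csf1) were higher and none was lower, where 13.1% of tested genes were called higher at 8 h, 12.6% at 24 h and 16.9% at 48 h. The shares called lower at these times were 12.1, 10.5 and 19.9%. The median log2 fold change of the 6 tested members was 0.76, 3.72, 1.92 and 2.56 at 1, 8, 24 and 48 h, beside medians between -0.03 and 0.00 over all tested genes. These counts and medians rest on members that passed the filter, and Cxcl1, Cxcl9, Cxcl10 and Cxcl12 passed it through IFN-gamma groups where they were high. A call upward was thus favoured in advance for them, and the values over all genes are not a like comparison.

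Cxcl9 and Cxcl10, the Cxcr3 ligands that lie near each other on chromosome 5, were nearly silent without IFN-gamma. Their promoters are shown because untreated groups of 8, 24 and 48 h held 0 to 4 reads in all, and IFN-gamma groups of those times 29 to 567, and that of Cxcl1 because it was the chemokine called at 1 h. Each run is the 250 bases before the RefSeq transcription start on the gene's own strand (build GRCm38.p6), with matches to the IRF element or the NF-kappaB consensus in capitals; windows were matched by symbol for 6 of the 10 members.
Cxcl9, chr5:92328080-92328329, minus strand: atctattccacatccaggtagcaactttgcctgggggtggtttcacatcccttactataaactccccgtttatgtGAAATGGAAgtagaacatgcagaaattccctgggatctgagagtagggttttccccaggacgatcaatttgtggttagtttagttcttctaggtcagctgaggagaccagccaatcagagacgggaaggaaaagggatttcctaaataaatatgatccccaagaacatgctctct
Cxcl10, chr5:92348890-92349139, minus strand: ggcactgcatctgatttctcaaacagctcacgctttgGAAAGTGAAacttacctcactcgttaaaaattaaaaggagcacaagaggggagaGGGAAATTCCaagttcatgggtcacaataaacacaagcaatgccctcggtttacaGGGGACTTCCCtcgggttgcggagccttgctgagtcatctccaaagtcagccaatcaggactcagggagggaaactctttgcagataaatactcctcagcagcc
Cxcl1, chr5:90890995-90891244, plus strand: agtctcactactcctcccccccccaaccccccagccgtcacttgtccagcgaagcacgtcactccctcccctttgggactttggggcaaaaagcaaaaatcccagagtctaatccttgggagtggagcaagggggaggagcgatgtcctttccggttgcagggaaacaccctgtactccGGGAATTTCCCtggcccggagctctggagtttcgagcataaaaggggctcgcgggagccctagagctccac
The windows searched ran from 250 bases before to 50 bases after the start, on both strands. The Cxcl9 window held 1 IRF element (GAAANNGAA), GAAATGGAA, beginning 175 bases before the start, and the Cxcl10 window held 1, GAAAGTGAA, beginning 213 bases before it. Such a match occurred in 8.56% of all 32851 promoter windows of the table. The NF-kappaB consensus matched the Cxcl10 window at 2 places, around 159 and 104 bases before the start, the Cxcl1 window at 1 place 71 bases before it and the Csf1 window at 1 place 154 bases before it, and 8.46% of windows held one; at the second Cxcl10 place and at the Cxcl1 place overlapping matches make up 1 run of capitals. An AP-1 match (TGANTCA) lay in the Cxcl9 and Cxcl10 windows and in 7.81% of all windows, and the GAS element (TTCNNNGAA, 8.30% of windows) and the CHOP/ATF4 element (TGATGNAA, 3.97%) matched none of the 6 windows. The Cxcl12 and Cx3cl1 windows held no match to any of the 5 motifs.

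Cxcl10 had 205, 157, 116 and 71 reads in the IFN-gamma 8 h libraries (11.9, 8.81, 6.39 and 4.56 CPM), against 0 reads in all 4 untreated 8 h libraries. At 24 h IFN-gamma cells held 223, 92, 137 and 115 reads (12.2, 4.31, 6.42 and 5.99 CPM) and untreated cells 0, 1, 0 and 3 reads. At 48 h the counts were 278, 53, 58 and 85 reads under IFN-gamma (13.3, 2.52, 3.5 and 5.56 CPM) and 0 in every untreated library. The groups did not overlap at any of these times. Set against a floor of 3 reads over the untreated group, the level under IFN-gamma was at least 187-fold higher at 8 h (adjusted p = 3.97e-08 by edgeR) and at least 153-fold higher at 48 h (adjusted p = 1.09e-07). At 24 h the fitted log2 fold change was 6.98 ± 0.74 (SE, adjusted p = 1.09e-07), and 8.18 without untreated 24 h replicate 4, which held 3 of that group's 4 reads. After only 1 h of IFN-gamma there were 1, 2, 5 and 1 reads, against none in untreated 1 h cells, which edgeR did not call (adjusted p = 0.513). Over the 10 groups, the IFN-gamma groups of 8, 24 and 48 h overlapped one another and lay above all the rest, and no order among the 3 held beyond their spread. The isoform table assigned most of the estimated reads to the coding transcript Cxcl10-201, at 95.4% of the gene in IFN-gamma 8 h cells, 91.8% at 24 h and 89.1% at 48 h. Cxcl10 shares 133 exon bases with the opposite-strand gene Art3, which had 78 reads in all 40 libraries together, and whether counting used strand is not given in the sources used here.

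Cxcl9 followed the same times at a lower level. IFN-gamma 8 h libraries held 32, 16, 19 and 15 reads (1.86, 0.898, 1.05 and 0.963 CPM), and untreated 8 h libraries held 0 in all 4, a level at least 27.9-fold higher over the same floor (adjusted p = 1.56e-06 by edgeR). The counts were 25, 7, 11 and 8 reads under IFN-gamma and 1, 0, 0 and 3 in untreated cells at 24 h, higher by 3.52 ± 0.74 on the log2 scale (SE, adjusted p = 6.88e-04), and by 4.72 without untreated 24 h replicate 4 (adjusted p = 6.73e-04). At 48 h IFN-gamma cells held 10, 7, 2 and 10 reads, against 0, 1, 0 and 0 in untreated cells, a 28-fold ratio with an exact 95% counting interval of 4.65 to 1140 (adjusted p = 0.00153). Without the 8 libraries above 0.1% the 48 h call held (adjusted p = 0.0206), the untreated group then having 0 reads. The groups did not overlap at these 3 times, and at 1 h they did, with 0, 0, 4 and 0 reads under IFN-gamma against 1, 1, 0 and 2 untreated. In the deposited isoform table, which gives estimated counts per transcript, Cxcl9 looked different. Its estimated reads at 24 h were 28, 17, 16 and 18 under IFN-gamma and 2, 13, 1 and 77 untreated. In that table the 24 h difference was 0.02 on the log2 scale (adjusted p = 0.993) and that of 48 h was 1.48 (adjusted p = 0.258), so both later calls of Cxcl9 were lost there. They were also lost within ranges of library numbers, at 24 h in the upper 20 (2.56, adjusted p = 0.142) and at 48 h in the lower and in the upper 20 (3.76 and 5.75, adjusted p = 0.0689 and 0.0573). The largest excesses of estimated Cxcl9 reads were in untreated 24 h replicate 4 (77, against 3 in the gene table), IFN-gamma 48 h replicate 2 (84, against 7 in the gene table) and IFN-gamma 1 h replicate 3 (54, against 4), which are also the 3 libraries with most reads on untested genes, and their part in the result was not tested.

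**Figure D2:**
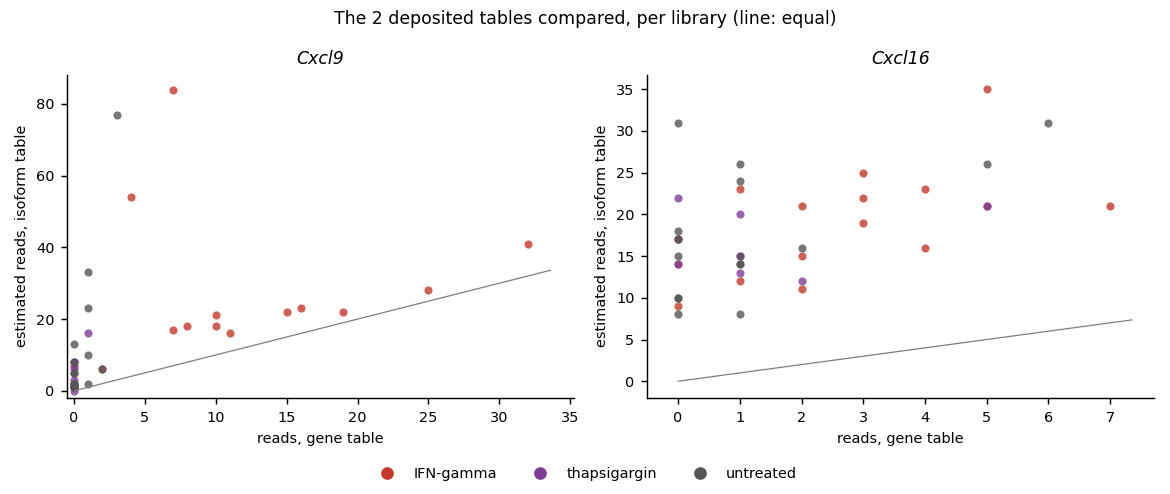
Estimated reads in the isoform table (vertical axes) against reads in the gene table (horizontal axes) for Cxcl9 and Cxcl16, 1 point a library, with a grey line where both are equal. For Cxcl9 the points at 84, 77 and 54 estimated reads stand far above the line, and for Cxcl16 all 40 libraries do.

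Cxcl1, the neutrophil-drawing chemokine, was called at 1 h of IFN-gamma and at no later time. The IFN-gamma 1 h libraries held 31, 23, 25 and 19 reads (1.56, 1.44, 1.08 and 1.13 CPM), against 4, 5, 1 and 0 reads in untreated 1 h cells (0.173, 0.226, 0.0601 and 0 CPM). The groups did not overlap, and the log2 fold change was 3.30 ± 0.52 (SE, adjusted p = 7.44e-05 by edgeR). DESeq2 gave a log2 fold change of 3.4 but no adjusted p for it, and in the lower 20 library numbers alone, 2 libraries against 2, it was 2.86 with an adjusted p of 0.0527. No other group mean exceeded 0.161 CPM, and no library of the other 9 groups held more than 7 reads. At 8 h there were 2, 5, 1 and 3 reads under IFN-gamma against 0, 0, 0 and 2 untreated, which was not called (log2 2.23 ± 0.98, adjusted p = 0.0964) and passed without untreated 8 h replicate 4 (4.65, adjusted p = 0.0145), whose 2 reads were that group's only ones. At 24 and 48 h the fitted differences were 0.62 ± 0.87 and 1.00 ± 0.83. The change of the IFN-gamma effect between 1 and 8 h was not called either (-1.07 ± 1.76 on the log2 scale, adjusted p = 0.787), its 95% interval running from -4.51 to 2.37. In the isoform table the coding transcript Cxcl1-201 averaged 19.49 estimated reads in IFN-gamma 1 h cells, against 0 in untreated 1 h cells, while the retained-intron transcript Cxcl1-202 averaged 10.51 and 5.25.

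Cxcl12 was a low-level gene that was higher from 8 h of IFN-gamma onward. IFN-gamma libraries held 24, 16, 27 and 19 reads at 8 h, 31, 27, 32 and 35 at 24 h and 31, 42, 39 and 23 at 48 h, or 0.898 to 2.35 CPM over the 3 times. Untreated libraries held 1, 1, 0 and 0 reads at 8 h, 8, 3, 2 and 15 at 24 h and 4, 5, 1 and 0 at 48 h, and no groups of the same time overlapped. The fitted log2 fold changes were 5.16 ± 0.75 at 8 h (adjusted p = 1.14e-06 by edgeR), 2.15 ± 0.46 at 24 h (adjusted p = 5.56e-04) and 3.67 ± 0.54 at 48 h (adjusted p = 1.67e-06). They were 2.71 at 24 h without untreated 24 h replicate 4 (adjusted p = 2.22e-04) and 5.47 at 48 h without the 8 libraries above 0.1% (adjusted p = 1.17e-06). As the untreated 8 h group had 2 reads in all, the ratio of reads there was 43.9-fold with an exact 95% counting interval of 11.8 to 368. At 1 h the reads were 5, 1, 14 and 1 under IFN-gamma and 10, 12, 1 and 5 untreated, which overlapped (adjusted p = 0.92). At 24 h the call was lost with the isoform table (1.65, adjusted p = 0.066) and in the upper 20 library numbers alone (2.00, adjusted p = 0.0836). Outside the IFN-gamma groups of 8 to 48 h, the highest Cxcl12 counts were in libraries with many reads on untested genes: 15 in untreated 24 h replicate 4 (0.315%), 14 in IFN-gamma 1 h replicate 3 (0.230%), 10 and 12 in untreated 1 h replicates 1 and 2 (0.154 and 0.123%). In the order of group means the IFN-gamma groups of 8, 24 and 48 h overlapped their neighbours and lay apart from all others.

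**Figure D3:**
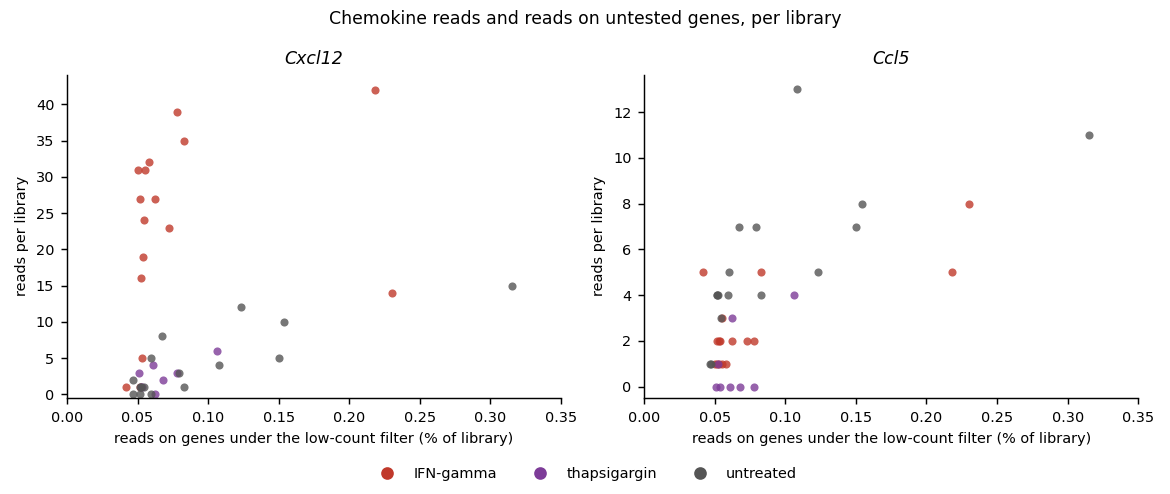
Reads of Cxcl12 and Ccl5 in each library (vertical axes) against the percent of that library's reads that fell on genes under the low-count filter (horizontal axes). Outside the IFN-gamma libraries of 8, 24 and 48 h, the Cxcl12 points of 10 reads or more all lie above 0.1%, and the highest untreated Ccl5 libraries (13 and 11 reads) lie there as well.

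Cx3cl1, the membrane-bound chemokine fractalkine, was already expressed and reached its highest level at 8 h of IFN-gamma. IFN-gamma 8 h libraries stood at 106, 100, 104 and 107 CPM (1814, 1789, 1889 and 1659 reads), against 22.5, 22.6, 23.2 and 17.3 CPM in untreated 8 h cells. The groups were far apart. On the log2 scale the difference was 2.28 ± 0.21 (SE, adjusted p = 7.2e-11 by edgeR), or 4.86-fold. At 24 h the levels were 63.4, 40.7, 47.1 and 42.3 CPM under IFN-gamma and 20.5, 19.9, 14.3 and 11.4 CPM untreated, and at 48 h 40.6, 21, 18.6 and 24.7 CPM under IFN-gamma and 8.43, 15.1, 5.96 and 8.37 CPM untreated. Neither pair overlapped, and the log2 fold changes were 1.55 ± 0.21 (adjusted p = 4.58e-07) and 1.45 ± 0.22 (adjusted p = 2.47e-06), that of 48 h being 1.98 without the 8 libraries above 0.1% (adjusted p = 6.94e-07). At 1 h no difference was called, at 25.6 to 33.8 CPM under IFN-gamma and 22.9 to 32.1 CPM untreated (log2 0.18 ± 0.21, 95% interval -0.23 to 0.58). Cx3cl1-201, a coding transcript, took 95.9 to 98.8% of the gene's estimated reads in every group.

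Cx3cl1 was also the one member called under thapsigargin. At 8 h thapsigargin cells held 51.3, 43.5, 43.5 and 42.8 CPM, all above the 17.3 to 23.2 CPM of untreated 8 h cells, higher by 1.08 ± 0.21 on the log2 scale (adjusted p = 3.4e-05 by edgeR). IFN-gamma 8 h cells stood higher still than thapsigargin 8 h cells (log2 1.2 ± 0.20, adjusted p = 3.91e-06), with no overlap. In the ranking of the 10 group means IFN-gamma 8 h came first at 104 CPM, apart from the next group. IFN-gamma 24 h (48.4 CPM) and thapsigargin 8 h (45.3 CPM) overlapped each other and lay apart from the fourth, IFN-gamma 1 h at 30.9 CPM. Each of the remaining groups down to untreated 48 h (9.47 CPM) overlapped its neighbour. The 9 neuron markers, read beside Cx3cl1 because neurons are known to make it, summed to 314 to 368 CPM in IFN-gamma 8 h libraries, to 207 to 227 CPM in thapsigargin 8 h libraries and to 73.2 to 82.8 CPM in untreated 8 h libraries. Of the 7 tested, 3 were higher and none lower under IFN-gamma at 8 h, where 13.1 and 12.1% of all tested genes were. Under thapsigargin at 8 h 5 were higher and 1 lower, where 29.6 and 31% of all tested genes were. Most of the sum was Tubb3 (294 ± 30.4, 146 ± 8.60 and 47.5 ± 5.81 CPM). Under thapsigargin at 8 h Snap25 (26 ± 1.80 CPM, against 6.12 ± 0.641 CPM) and Gad1 (12.7 ± 3.70 CPM, against 0.259 ± 0.0943 CPM) were also higher, while Stmn2 and Slc17a7 averaged at most 0.178 and 0.349 CPM in any group; their part in the Cx3cl1 levels was not tested.

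Csf1, the microglial growth factor, was higher under IFN-gamma at all 4 times, and it was also the member that climbed most in untreated culture. At 1 h the levels were 38.5, 33.3, 60.6 and 50 CPM under IFN-gamma, against 18.5, 16.8, 17.4 and 19.2 CPM untreated, higher by 1.34 ± 0.22 on the log2 scale (SE, adjusted p = 1.34e-04 by edgeR) and by 1.18 without IFN-gamma 1 h replicate 3 (adjusted p = 0.00227). At 8 h they were 81, 82.6, 89.1 and 86.3 CPM under IFN-gamma and 16.3, 18.6, 20.4 and 25.8 CPM untreated (2.07 ± 0.22, adjusted p = 2.77e-09). The 24 h values were 84, 84.2, 89.7 and 90.7 CPM under IFN-gamma and 21.5, 20.9, 22.7 and 42.3 CPM untreated (1.69 ± 0.22, adjusted p = 1.63e-07, and 2.01 without untreated 24 h replicate 4). No groups overlapped at these 3 times. At 48 h they did, with 82.2, 103, 127 and 113 CPM under IFN-gamma and 56.9, 31.6, 86.4 and 79.8 CPM untreated, and the log2 fold change was 0.74 ± 0.21 (adjusted p = 0.00591). That call was lost when only these 2 groups were fitted (0.75, adjusted p = 0.105), in the upper 20 library numbers alone (0.55, adjusted p = 0.0541) and without the 8 libraries above 0.1% (0.37, adjusted p = 0.0818). Untreated 48 h replicate 2, the library with the lowest Csf1 and the highest Cx3cl1 of its group, also had the lowest lineage sum (11200 CPM, the other 3 at 18200 to 21400 CPM). In the order of group means IFN-gamma 48 h stood first at 106 CPM and thapsigargin 1 h last at 17.1 CPM, and each group overlapped its neighbour. The coding transcript Csf1-201 took 69.4 to 86% of the gene's estimated reads in each group.

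Whether the IFN-gamma effect itself changed between times was tested as a difference of differences. Between 1 and 8 h it grew for Cxcl12 (5.54 ± 1.02 on the log2 scale, adjusted p = 1.25e-04), for Cx3cl1 (2.10 ± 0.29, adjusted p = 1.41e-06) and for Cxcl9 (7.46, a value that depends on the prior count because untreated 8 h cells had 0 reads, adjusted p = 0.0116, and lost without untreated 1 h replicate 4 at an adjusted p of 0.0641), where 7.39% of tested genes were called upward. For Csf1 the growth was 0.72 ± 0.31 (adjusted p = 0.138), and it passed with a term for library number range (0.77, adjusted p = 0.0252) and without the 8 libraries above 0.1% (0.94, adjusted p = 0.00486). Cxcl10 could not be tested here, having 0 reads in both untreated groups. Cxcl9 and Cxcl12 passed the filter through IFN-gamma groups of 8 h and later. A growth from 1 to 8 h was thus favoured in advance for them, and the share over all genes is not a like comparison. None of the 6 tested members was called between 8 and 24 h, where 1.34% of all tested genes were called in either direction and 2192 genes had an unadjusted p under 0.05. None was called between 24 and 48 h by edgeR on all libraries, where 1.68% were called in either direction and 2244 had an unadjusted p under 0.05. There Csf1 came nearest, its IFN-gamma effect at 48 h less that at 24 h being -0.95 ± 0.30 (adjusted p = 0.0972), and it passed with the term for library number range (-0.95, adjusted p = 0.0206), without the 8 libraries (-1.64, adjusted p = 5.66e-06), without untreated 24 h replicate 4 (-1.27, adjusted p = 0.0104) and without untreated 48 h replicate 2 (-1.17, adjusted p = 0.00282).

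**Figure D4:**
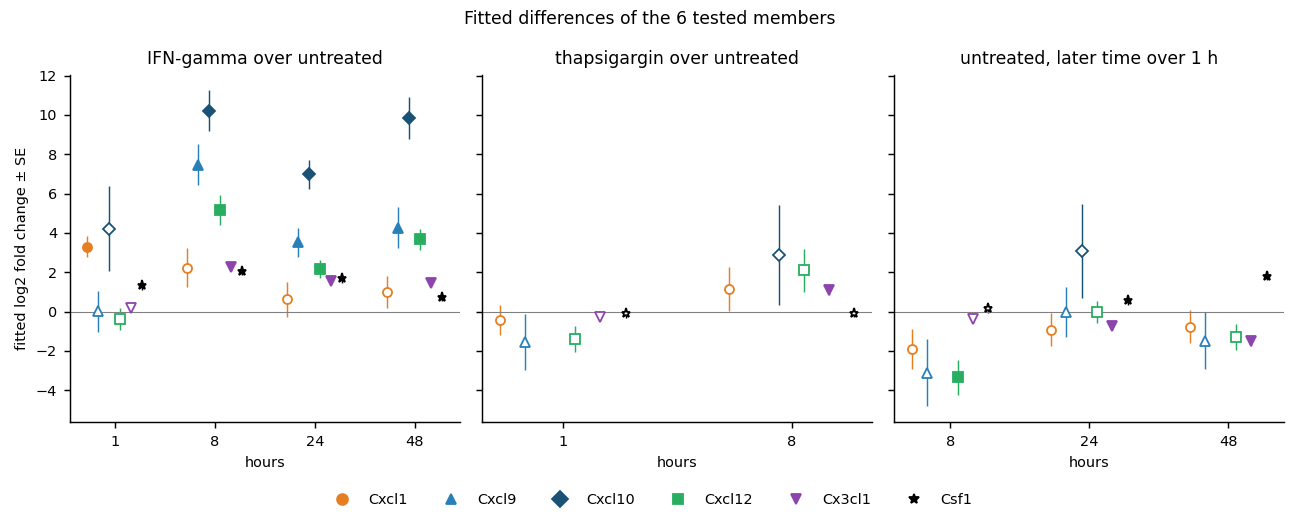
Fitted log2 fold changes ± SE (vertical axis) of the 6 tested members by hours (horizontal axes), for IFN-gamma over untreated, thapsigargin over untreated and later untreated times over 1 h. Filled symbols were called at an adjusted p under 0.05. Estimates for Cxcl9 and Cxcl10 against groups with 0 reads depend on the prior count and are not bounds, and comparisons of 2 groups with 0 reads are left out. Under thapsigargin Cx3cl1 at 8 h (1.08) is the one filled symbol.

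Thapsigargin left most of the set without a call. At 1 h none of the 5 members with reads to test was called against untreated cells, where 8.79% of tested genes were called in either direction and 3209 had an unadjusted p under 0.05. At 8 h Cx3cl1 alone was called higher and none lower, where 29.6% of tested genes were called higher and 31% lower. Cxcl1 had 5 reads over the thapsigargin 8 h group and 2 over the untreated 8 h group. For Cxcl1, Cxcl9, Cxcl10 and Cxcl12 the lack of a call rests on few reads in both groups. Csf1 stood at 15.5, 18.9, 20.4 and 23 CPM in thapsigargin 8 h cells, against 16.3 to 25.8 CPM in untreated 8 h cells, with a difference of -0.06 on the log2 scale and a 95% interval of -0.50 to 0.38. Cxcl10 had 2, 1, 0 and 0 reads in thapsigargin 8 h cells and Cxcl9 had none. Cxcl12 had 3, 4, 1 and 2 reads, against 1, 1, 0 and 0 in untreated 8 h cells, which did not overlap in CPM and was not called (log2 2.10 ± 1.09, adjusted p = 0.0963), though it passed without the 8 libraries (2.11, adjusted p = 0.0365). The thapsigargin effect at 8 h lay above that at 1 h for Cx3cl1 (1.36 ± 0.30, adjusted p = 2.52e-04) and for Cxcl12 (3.48 ± 1.28, adjusted p = 0.024), where 22.7% of tested genes were called upward. The Cxcl12 call was lost without thapsigargin 8 h replicate 2 (3.24, adjusted p = 0.0591). For Cxcl12 neither effect was called on its own (log2 -1.38 at 1 h and 2.10 at 8 h). Its thapsigargin groups held 10 reads at both times, while its untreated groups held 28 reads at 1 h and 2 at 8 h.

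The direct comparison of treatments named the same members as IFN-gamma against untreated cells, with which it shares its IFN-gamma libraries. At 1 h Cxcl1 (3.73 ± 0.56, adjusted p = 1.08e-05) and Csf1 (1.42 ± 0.22, adjusted p = 2.41e-05) were higher in IFN-gamma than in thapsigargin cells, where 1.72% of tested genes were called higher. At 8 h Cxcl9, Cxcl10, Cxcl12, Cx3cl1 and Csf1 were higher in IFN-gamma cells, where 31.5% of tested genes were. The limit set by the filter, given above, holds for these counts as well. Cxcl10 had 549 reads over the IFN-gamma 8 h group and 3 over the thapsigargin 8 h group, a 185-fold ratio with an exact 95% counting interval of 62.8 to 898. For Csf1 the log2 difference was 2.13 ± 0.23 (adjusted p = 3.39e-10).

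In untreated culture the 2 well-expressed members moved in opposite directions. Csf1 averaged 18 ± 1.11, 20.3 ± 4.07, 26.9 ± 10.4 and 63.7 ± 24.8 CPM at 1, 8, 24 and 48 h (SD, n = 4 each), and Cx3cl1 27.4 ± 3.77, 21.4 ± 2.72, 16.5 ± 4.37 and 9.47 ± 3.93 CPM. At 48 h against 1 h Csf1 was higher by 1.82 ± 0.22 on the log2 scale (adjusted p = 2.47e-08 by edgeR) and Cx3cl1 was lower, with a change of -1.51 ± 0.22 (adjusted p = 4.14e-07), where 31.9% of tested genes were called higher and 30.4% lower. At 24 h the changes were 0.58 ± 0.22 for Csf1 (adjusted p = 0.0462) and -0.73 ± 0.21 for Cx3cl1 (adjusted p = 0.0102), where 13.9% were higher and 14.4% lower. Both 24 h calls were lost without untreated 24 h replicate 4, which had 42.3 CPM of Csf1 beside 20.9 to 22.7 CPM in the other 3 libraries (Csf1 0.29, adjusted p = 0.372, and Cx3cl1 -0.57, adjusted p = 0.072). The Csf1 call at 24 h was also lost without any 1 of the untreated 1 h libraries (adjusted p between 0.0508 and 0.0915). At 8 h Cxcl12 was called lower than at 1 h (-3.34 ± 0.91, adjusted p = 0.0193), where 2.16% were called lower, and the call was lost without either of the untreated 1 h replicates 1 and 2 (adjusted p = 0.0607 and 0.0842), without untreated 8 h replicate 4 (0.0672) and without the 8 libraries (-2.39, adjusted p = 0.239). Without those 8 libraries the 48 h changes were 2.22 for Csf1 and -1.79 for Cx3cl1. Of the 12 lineage markers 8 were higher and 4 lower at 48 h than at 1 h. Of 9 tested astrocyte markers 6 were higher, among them Gfap (48.6 against 5.77 CPM) and Aqp4 (24.1 against 2.16 CPM), and 2 lower, and the astrocyte sum was 364 to 481 CPM at 48 h and 385 to 463 CPM at 1 h. The part of either lineage in the rise of Csf1 was not tested; in bulk samples fewer cells of a type and less RNA per cell cannot be told apart.

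Of the members under the filter, Ccl2, the monocyte chemokine, had the lowest adjusted p under IFN-gamma when edgeR was fitted without the filter. The IFN-gamma 8 h libraries held 5, 9, 7 and 5 reads, against 0 in all 4 untreated 8 h libraries, at least 8.84-fold higher over a floor of 3 reads. At 24 h IFN-gamma cells held 7, 2, 6 and 3 reads and untreated cells 1, 0, 0 and 2. These groups did not overlap, and a two-sided exact permutation test of mean CPM gave p = 0.0286 at both times, the smallest that 4 libraries against 4 allow, and 0.137 after adjustment over the 24 such tests. Fitted without the filter, the 8 h difference passed in edgeR (adjusted p = 0.0017) and that of 24 h did not (adjusted p = 0.168).

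Ccl5, a chemokine that draws T cells, had 0 to 13 reads a library. Thapsigargin 8 h libraries held none, against 4, 4, 1 and 4 reads in untreated 8 h cells (exact permutation p = 0.0286, 0.137 adjusted), and without the filter this difference was called lower by edgeR (adjusted p = 7.43e-04). The isoform table gave Ccl5 7, 9, 3 and 8 estimated reads in thapsigargin 8 h libraries, against 8, 11, 3 and 11 in untreated 8 h libraries, which overlap. At 48 h IFN-gamma cells held 3, 5, 2 and 2 reads and untreated cells 13, 7, 4 and 5, with no overlap in CPM and the same exact permutation p of 0.0286. At 8 h the counts were 1, 1, 1 and 2 under IFN-gamma (exact permutation p = 0.0571) and at 24 h 1, 2, 1 and 5 against 7, 7, 1 and 11 untreated (exact permutation p = 0.0857). The retained-intron transcript Ccl5-202 took 43.2 to 72% of its estimated reads. The untreated libraries with most Ccl5 reads, 13 in 48 h replicate 1 and 11 in 24 h replicate 4, had 0.108 and 0.315% of reads on untested genes, and the part of those reads was not tested.

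Cxcl16 had 3, 5, 4 and 3 reads in IFN-gamma 48 h cells, against 1, 1, 0 and 0 in untreated 48 h cells (exact permutation p = 0.0286, 0.137 adjusted), and 0 to 7 reads elsewhere. The isoform table gave it 8 to 35 estimated reads in every library, 721 in all against 71 in the gene table. Its exons share 552 bases with the opposite-strand gene Zmynd15, and how reads on shared bases were counted is not given in the sources used here. Ccl7 had 0 to 2 reads in each library and 12 in all, and no difference was detectable at this depth.

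**Figure D5:**
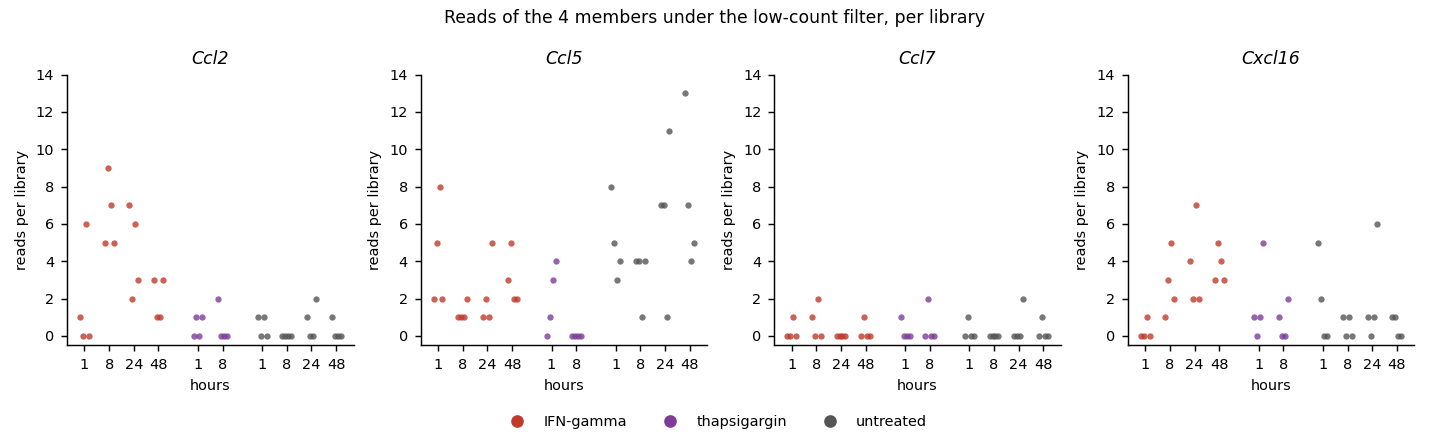
Reads per library (vertical axes) of Ccl2, Ccl5, Ccl7 and Cxcl16 in all 40 libraries, by hours (horizontal axes). Each point is a library. Ccl2 reached 5 to 9 reads in IFN-gamma 8 h cells and 0 in untreated 8 h cells, Ccl5 was at 0 in all thapsigargin 8 h libraries, and Ccl7 never passed 2 reads.

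Other chemokines, receptors and shedding enzymes were read as lists that share the pathway. Of 29 other chemokine genes 25 stayed below 0.5 CPM in every group mean, and 4 were tested. None of the 4 was called at 1, 8 or 24 h of IFN-gamma, and at 48 h Cxcl14 (4.19 ± 2.84 CPM under IFN-gamma and 2.04 ± 0.6 untreated) and Ccl25 (12.1 ± 1.5 and 9.52 ± 1.64 CPM) were higher. Of all tested genes 1.08, 13.1, 12.6 and 16.9% were called higher at 1, 8, 24 and 48 h of IFN-gamma, and 0.211, 12.1, 10.5 and 19.9% lower. Under thapsigargin at 8 h 2 of the 4 were higher and none lower, where 29.6 and 31% of all tested genes were. In untreated culture 1 of the 4 was higher and 2 lower at 48 h than at 1 h, where 31.9 and 30.4% of all tested genes were. Cxcl14 was among the lower (2.04 ± 0.6 and 12.7 ± 1.30 CPM, adjusted p = 2e-08 by edgeR). Among 24 receptors, 21 stayed below 0.5 CPM, the receptor of Csf1 (Csf1r, at most 0.229 CPM), that of Cx3cl1 (Cx3cr1, 0.186 CPM) and that of Cxcl9 and Cxcl10 (Cxcr3, 0.0108 CPM) included.

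The receptors of Cxcl12 were measurable. Ackr3, the scavenger, was higher under IFN-gamma at 8 h (26 ± 2.67 CPM, against 12.9 ± 2.05 CPM untreated, adjusted p = 3.71e-04), at 24 h (29.8 ± 5.19 and 15.4 ± 2.78 CPM, 6.08e-04) and at 48 h (29.3 ± 1.06 and 8.81 ± 4.58 CPM, 8.06e-08). Cxcr4, the signalling receptor, was lower at the same times, for example at 8 h (1.74 ± 0.540 CPM, against 4.82 ± 0.808 CPM, adjusted p = 7.52e-05). Under thapsigargin at 8 h both were lower than in untreated cells, Ackr3 at 2.44 ± 0.370 and Cxcr4 at 0.650 ± 0.244 CPM.

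Of 9 proteases and inhibitors that release or trim the ligands, 6 were tested, and 2 were higher and 1 lower under IFN-gamma at 8 h, where 13.1% of all tested genes were called higher and 12.1% lower. At 24 h 2 were higher and 4 lower, where 12.6 and 10.5% of genes were. Timp3, an inhibitor of Adam17 and Adam10, stood at 491 ± 9.29 CPM under IFN-gamma, against 82.9 ± 18.6 CPM untreated (log2 2.57 ± 0.20, adjusted p = 8.91e-13). Adam10 was slightly higher (132 ± 10.4 and 108 ± 13.9 CPM) and Rhbdf1, a cofactor of Adam17, lower (29.4 ± 1.31 and 46.9 ± 3.69 CPM). Under thapsigargin at 8 h 5 of the 6 were lower and none higher, Timp3 at 11.8 ± 4.23 CPM, where 31% of all tested genes were called lower and 29.6% higher.

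Among 17 transcription factors and feedback genes of the inducing pathways, 3 were higher and 1 lower after 1 h of IFN-gamma, and 9 were higher and 2 lower at 8 h, beside the 1.08 and 13.1% of all tested genes called higher and the 0.211 and 12.1% called lower. Irf1 was at 632 ± 182 CPM after 1 h of IFN-gamma and 25.5 ± 1.17 CPM untreated. Of 8 factors that set the decay of chemokine mRNA, Zfp36 (9.92 ± 0.768 and 2.87 ± 0.735 CPM) and Arid5a (107 ± 13.4 and 46.2 ± 2.38 CPM) were higher after 1 h of IFN-gamma than in untreated cells. Arid5a was also higher under thapsigargin at 8 h (106 ± 11.6 CPM, against 28.6 ± 1.24 CPM). Under thapsigargin 8 of the 17 transcription factors were higher and 1 lower at 1 h, and 8 higher and 4 lower at 8 h, where 6.61 and 2.18% of genes were called higher and lower at 1 h and 29.6 and 31% at 8 h. Of 10 other growth factors and cytokines 3 were tested, and at 8 h of thapsigargin 1 was higher and 1 lower, beside the same shares of all tested genes. Vegfa, the vascular endothelial growth factor, stood at 345 ± 28.1 CPM in thapsigargin 8 h cells, against 3.17 ± 0.993 CPM in untreated 8 h cells (log2 6.72 ± 0.42, adjusted p = 4.64e-16).

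Some genes used as markers of other cells moved along with the IFN-gamma members. Acta2, a mural marker, stood at 9.19 CPM in IFN-gamma 8 h cells and 0.259 CPM in untreated 8 h cells, and Lum, a fibroblast marker, at 4.82 and 0.162 CPM. The 8 mural markers summed to 14.5 to 15.4 CPM in IFN-gamma 8 h libraries, against 0.928 to 2.15 CPM untreated, with 5 of the 8 below 0.5 CPM under IFN-gamma. The 8 fibroblast markers summed to 3.90 to 5.73 CPM, against 0.214 to 1.11 CPM, with 7 of the 8 below 0.5 CPM under IFN-gamma. The astrocyte sum was 556 to 616 CPM under IFN-gamma at 8 h, against 372 to 496 CPM untreated, with Slc1a3 at 229 and 112 CPM the 1 of 9 tested astrocyte markers called higher and none lower, and the median log2 fold change of the 9 was -0.06. Over all tested genes 13.1% were called higher and 12.1% lower at 8 h of IFN-gamma. The part of such cells in the levels of the 10 factors was not tested.

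For each tested member the 3 genes with the most similar pattern were taken by Pearson's r of log2 CPM over the 10 group means, among 13672 genes that reached 1 CPM in a group; these are descriptions over groups that share libraries, time course and treatment. Cxcl10 was matched most closely by Apol10b (r = 0.997), 2610002M06Rik and F830016B08Rik (0.996 each). Cxcl9 was followed by Gm42495 (0.989), 2010005H15Rik (0.986) and Ogfr (0.985). For Cx3cl1 they were Slc1a3 (0.979), Gtpbp3 (0.976) and Cd24a (0.975), for Csf1 Mgst1 (0.977), Zdhhc21 (0.961) and Ccdc190 (0.959), and for Cxcl12 C130060K24Rik (0.961), Trim12a (0.959) and Insrr (0.954). Cxcl1 had looser matches, Gm17084 (0.875), Zfp97 (0.801) and Socs3 (0.797).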

How the data were processed

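The 40 bulk RNA-seq libraries were grouped by their labels into 10 groups of 4. Values in the deposited gene table are whole-number read counts for each gene. Estimated counts for each transcript come from a second table deposited by the authors, and were summed per gene and rounded for use as an alternative. Tools listed per the submitters' processing notes, with neither version nor role, are STAR, featureCounts, kallisto and edgeR. Build, annotation and strandedness are not given there. Of 39056 identifiers 38872 matched a GENCODE M21 symbol, and promoter windows are RefSeq's (GRCm38.p6), matched by symbol. The members and lists were chosen with earlier results of these data known.

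Genes were filtered by edgeR's filterByExpr, scaled by TMM and fitted with 1 mean per group over all 40 libraries (edgeR 4.0.16, R 4.3.3, quasi-likelihood, 30 residual degrees of freedom, prior count 0.125). An SE is the absolute log2 fold change over the square root of F, and an interval on the log2 scale spans 1.96 SE each way. The fit was tried on simulated counts with changes planted only in better-covered genes, so that trial does not cover members with few reads. Members under the filter were compared by exact two-sided permutation of mean CPM (scipy 1.17.1). A group with 0 reads was given a floor of 3 reads over the group, and floors and counting intervals cover counting error only. A difference of differences with 0 reads in more than 1 group was not tested. The closest of 60 replicate pairs still had a chi-square of 6.08 per degree of freedom over genes, so no library was counted as a copy of another.

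All 10 members are described. Other lists give counts called and up to 4 called genes each by size of change, with a mean of at least 1 CPM; single markers and receptors under that level were named for their role. Other settings were RLE size factors, DESeq2 1.42.0, no filter, a term for library number range (lower or upper 20, each with 2 libraries of every group), each range alone, only the groups compared, a Y-linked covariate, a prior count of 2, the isoform table and leaving out each library. Leaving out the 8 libraries above 0.1%, or the 3 above 0.2%, of reads on untested genes was added after the values were seen.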

Additional observations from a re-analysis of the deposited data

Results flagged for a closer look

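In 4 of 37 sets of 4 libraries with a mean of at least 5 reads, 1 library stood farther from its nearest neighbour than Dixon's 95% critical value for 4 values allows, and chance gives about 1 in 20. These were Cxcl9 in IFN-gamma 8 h replicate 1 (1.86 CPM, the others 0.898 to 1.05), Cx3cl1 in thapsigargin 8 h replicate 1 (51.3 CPM, the others 42.8 to 43.5), Cx3cl1 in untreated 8 h replicate 4 (17.3 CPM, the others 22.5 to 23.2) and Csf1 in untreated 24 h replicate 4 (42.3 CPM, the others 20.9 to 22.7). The last library also had the most reads on untested genes (0.315%), whose part in its Csf1 level was not tested.

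The effect of IFN-gamma at 8 h differed from its effect at 1 h, by edgeR's test of the difference itself, for Cxcl9 (7.46 on the log2 scale, a value that depends on the prior count because untreated 8 h cells had 0 reads), Cxcl12 (5.54) and Cx3cl1 (2.10). For Cxcl9 and Cxcl12 such a growth was favoured in advance by the filter, as given above. The effect of thapsigargin at 8 h differed from that at 1 h for Cxcl12 (3.48) and Cx3cl1 (1.36). For Cxcl12 the thapsigargin groups held 10 reads at both times, and the untreated groups 28 at 1 h and 2 at 8 h.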

How the results depend on the processing

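Over the 35 called comparisons of members, 607 of 636 values under other settings were still called, 29 were not and 0 changed sign, and of 884 values for the 48 uncalled comparisons 12 were called. The number of members called moved as follows. For IFN-gamma over untreated cells it was 1 at 1 h with DESeq2 and in the lower 20 library numbers, 3 at 24 h with the isoform table and in the upper 20, and 3 at 48 h in the upper 20 and with only the 2 groups. For thapsigargin at 8 h it was 2 without the filter and in 32 libraries (those at or under 0.1% of reads on untested genes). For untreated 8 h over 1 h it was 0 in 32 libraries and 0 to 1 leaving out a library. For untreated 24 h over 1 h it was 1 without the filter, 0 in 32 and in 37 libraries, and 0 to 2 leaving out a library. For the IFN-gamma effect at 48 h less 24 h it was 1 with the range term and in 32 and 37 libraries, and 0 to 1 leaving out a library, and for the thapsigargin effect at 8 h less 1 h it was 3 without the filter and 1 to 2 leaving out a library. For the IFN-gamma effect at 8 h less 1 h it was 4 with the range term and in 32 and 37 libraries, and 2 to 3 leaving out a library, and for IFN-gamma over thapsigargin at 8 h it was 7 without the filter.

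Counts of all genes called moved too. IFN-gamma over untreated gave 195 genes at 1 h (80 in the lower 20), 3811 at 8 h (2456 in the upper 20), 3493 at 24 h (1526 in the lower 20) and 5570 at 48 h (3039 in the lower 20, 2041 with only 2 groups). Thapsigargin at 1 h gave 1331 (805 without the filter, 179 and 832 in the lower and upper 20, 456 in 32 libraries, 808 to 1366 leaving out a library). Untreated 8 h over 1 h gave 1049 (611 without the filter, 362 in 32 libraries, 538 to 1108 leaving out a library), and 24 h over 1 h 4282 (871 and 2550 in 32 and 37 libraries, 2314 to 4187 leaving out a library). The IFN-gamma effect at 24 h less 8 h gave 203 (344 by DESeq2, 105 without the filter, 131 in 37 libraries, 125 to 277 leaving out a library) and at 48 h less 24 h 255 (436 by DESeq2, 404 with the range term, 2978 and 717 in 32 and 37 libraries, 67 to 1876 leaving out a library). Smaller fits have fewer libraries, and beyond that the cause was not tested. No paired analysis was run because the labels give no replicate numbers, and those used here only follow accession order. In the IFN-gamma groups of 8, 24 and 48 h the same numbers had low Y-linked sums (replicates 1 and 3), which did not hold in the other groups. Replicate 1 there held 6.74 to 8.18 CPM and replicate 3 0.656 to 1.15 CPM, while Xist was 8.32 to 11.1 CPM in replicate 2 and 0.0654 to 0.321 CPM in replicate 4. In the thapsigargin groups replicates 1 to 4 held 287, 29.6, 316 and 212 CPM at 1 h and 405, 25, 410 and 270 CPM at 8 h, the same order. Their Xist levels were 21.9, 423, 0.214 and 105 CPM at 1 h and 33.6, 729, 0.257 and 250 CPM at 8 h. No label says that a number marks a shared preparation, and whether libraries of 1 number are linked across times was not tested. The fit took all libraries as independent, so its p-values, those between times and of differences of differences included, do not allow for such links. Differences in Ccl7, Cxcl16 and Ccl5 are limited by depth, at 0 to 13 reads a library.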
